A study of Homo sapiens with 12 samples.

Results

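The NRF2 and glutathione redox genes described here are 10 genes taken by a rule that lists symbols and uses no measured value: NFE2L2, KEAP1, NQO1, TXNRD1, SRXN1, GCLC, GCLM, GSR, HMOX1 and OSGIN1. The list was nevertheless drawn up with earlier results of these data known. All 10 were found among the 26485 symbols counted in every library, and all 10 were among the 13619 symbols that passed the filter on low counts. Their RNA was counted in DLD1, an established human colon cancer cell line, by sequencing poly(A) RNA after 1 h in culture with the vehicle DMSO or with TCDD, kynurenine (Kyn in the labels) or CH223191. The sample labels give the last group only as CH, which is read here as CH223191 from the series title, and the protocol text does not mention it. The dose of 10 µM is stated once, for every chemical, in the series' design text. There were 4 groups of 3 libraries (12 libraries), and the labels name no genetic change in any of them. DLD1 is a single transformed line, so the libraries carry no variation between donors. Whether replicate libraries were grown as separate cultures is not in the labels, and the p-values therefore measure only the spread between libraries, which may be technical.

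NRF2, the protein of NFE2L2, is a transcription factor that the KEAP1 adaptor of a CUL3 ubiquitin ligase normally marks for degradation. When reactive molecules modify cysteines of KEAP1, NRF2 escapes, pairs with a small MAF protein and binds antioxidant response elements near genes for glutathione synthesis, the thioredoxin system and quinone reduction. The aryl hydrocarbon receptor, AHR, is a ligand-activated transcription factor that binds a different short element. TCDD is a potent agonist of AHR, kynurenine, made from tryptophan, is a weaker one, and CH223191 is used as an antagonist. NQO1 is a textbook target of both NRF2 and AHR, and NFE2L2 itself has been described as an AHR target, which is why the 2 systems are read together here. Control of NRF2 through KEAP1 acts on the protein, which these RNA counts do not measure.

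Sequence before the start sites is shown first because it can hold the elements that the NRF2 and AHR proteins recognise. The RefSeq promoter table (GRCh38.p14) had 11 windows of 250 bases before a start site for 8 of the 10 genes, and HMOX1 and GSR had none. A pair of short cores was searched on both strands: TGACNNNGC, the core of the antioxidant response element, and GCGTG, the core of the AHR element. The antioxidant core lay in 4 of the 11 windows, those of GCLM, KEAP1 (1 of its windows, with 2 matches) and TXNRD1 (both windows), against 10.9% of all 35116 windows in the table. The AHR core lay in 7 of the 11 windows, from 6 genes, against 32.2% of all windows. The 11 windows were 52.4% to 80.4% G or C, and the shares over all windows were not matched for this. No match of one core shared a base with a match of the other. The windows of NQO1 and SRXN1 held neither core, which says only that these letters are not within 250 bases before those start sites. Besides NFE2L2, the AHR core lay in windows of GCLC, GCLM, TXNRD1, OSGIN1 and KEAP1. Of the genes with the AHR core, NFE2L2, GCLM and TXNRD1 had an adjusted p under 0.05 with TCDD, and GCLC, OSGIN1 and KEAP1 did not. Of the genes whose windows held no AHR core, NQO1 did and SRXN1 did not. A link between the core and the changes was not tested. The stretches below are printed on the strand of each gene with the matched core in capitals. First come antioxidant cores of 3 genes and then the AHR core of NFE2L2 alone, the gene of this set that changed most with TCDD.
GCLM, chr1:93909446-93909474, minus strand, match 34 to 26 bases before the start: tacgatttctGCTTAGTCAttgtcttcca
KEAP1, chr19:10502784-10502812, minus strand, match 31 to 23 bases before the start: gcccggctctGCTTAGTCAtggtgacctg
TXNRD1, chr12:104286920-104286948, plus strand, match 102 to 94 bases before the start: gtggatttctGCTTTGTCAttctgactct
TXNRD1, chr12:104215655-104215713, plus strand, match 99 to 91 bases before the start: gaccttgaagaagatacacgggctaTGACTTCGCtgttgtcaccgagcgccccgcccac
NFE2L2, chr2:177264237-177264291, minus strand, match 135 to 131 bases before the start: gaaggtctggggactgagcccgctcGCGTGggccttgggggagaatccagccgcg
NFE2L2, chr2:177264728-177264747, minus strand, match 10 to 6 bases before the start: gggcccgccgGCGTGtagcc

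The printed cores of GCLM and KEAP1 were the same 9 letters, which read TGACTAAGC on the opposite strand, and the first TXNRD1 core read TGACAAAGC there. The printed stretches of GCLM and KEAP1, that of TXNRD1 from 104286920 and that of NFE2L2 from 177264728 overlapped sequence annotated as untranslated parts of transcripts. These matches are descriptions of the letters and not measured binding.

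The libraries held 21397703 to 28247146 counted reads each, and the biological coefficient of variation over all genes was 3.22%. The exposures were checked on 5 genes read as AHR targets: CYP1A1, CYP1B1, AHRR, TIPARP and ALDH1A3. These 5 were chosen with earlier results of these data known. All 5 rose with TCDD and all 5 fell with CH223191, whereas with kynurenine 2 rose and 2 fell (2 and 1 without its replicate 1). At the same threshold, adjusted p under 0.05, 5.91% of all tested genes rose with TCDD and 16.9% fell with CH223191. With kynurenine 0.154% rose and 0.14% fell. CYP1A1, the best known of them, was at 3.05, 3.29 and 3.30 CPM (reads of the gene divided by the scaled library total, on the usual CPM scale) in DMSO, 409 to 438 CPM with TCDD, 9.16 to 11.2 CPM with kynurenine and 0.396 to 0.736 CPM with CH223191. With kynurenine CYP1A1 (1.65, adjusted p = 9.0e-14) and ALDH1A3 (0.63, adjusted p = 3.5e-06) rose, CYP1B1 (-0.37, adjusted p = 2.4e-07) and TIPARP (-0.21, adjusted p = 0.0271) fell, and AHRR was not called (-0.28, adjusted p = 0.55). Of 8 colon epithelial markers, 7 were above 1 CPM in every library, led by KRT8, and their summed level was 9114 to 9642 CPM in DMSO, 8868 to 9049 with TCDD, 9609 to 9928 with kynurenine and 9319 to 9567 with CH223191. CDX2, an intestinal transcription factor among these markers, rose with TCDD (0.41, adjusted p = 1.3e-10) and fell with CH223191 (-0.37, adjusted p = 6.2e-10), and CDH1 (-0.13, adjusted p = 0.00923) and KRT18 (-0.12, adjusted p = 0.0214) fell with TCDD. Immune markers summed to 7.27 to 17.0 CPM, with LYZ the highest on average, fibroblast markers to 0.436 to 1.26 CPM and endothelial markers to 0.822 to 1.69 CPM. Replicate 1 of kynurenine stood apart from its group. Its counts varied 4.55 and 4.50 times as much as Poisson noise against replicates 2 and 3, which varied 1.74 times as much against each other. Each call among the 10 genes that involves kynurenine is therefore also given without it. DMSO replicate 1 varied too, at 3.96 and 3.12 times Poisson noise against DMSO replicates 2 and 3, which were at 2.75 against each other. Calls among the 10 genes that were lost without a DMSO library are given with each gene.

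The set covers a wide range of RNA levels. Levels of different genes were set against each other per kilobase of the canonical transcript. In DMSO, TXNRD1, the cytosolic thioredoxin reductase, stood highest at 117 CPM per kilobase. NFE2L2 at 75.6 and NQO1 at 74.5 CPM per kilobase came next and their libraries overlapped, then KEAP1 at 58.7 and GSR at 56.9, which overlapped too. SRXN1 followed at 36.3 CPM per kilobase, then GCLM at 19.3 and GCLC at 18.1, whose libraries overlapped, then HMOX1 at 6.89 and OSGIN1 at 3.45. The order was not fixed: NFE2L2 lay above NQO1 in every library with TCDD (88.6 to 93.5 against 82.5 to 84.7 CPM per kilobase), and below it with kynurenine (72.0 to 75.3 against 80.7 to 84.9) and with CH223191 (74.3 to 77.5 against 89.1 to 92.0). GCLM and GCLC also changed places on this scale, GCLM higher with TCDD and kynurenine and GCLC higher with CH223191, with no overlap between their libraries in those groups. This crossing rests on the canonical lengths of 4883 and 3785 bases. In CPM not divided by length, GCLM stayed above GCLC with CH223191 (91.8 to 96.8 against 83.7 to 84.2).

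**Figure D1:**
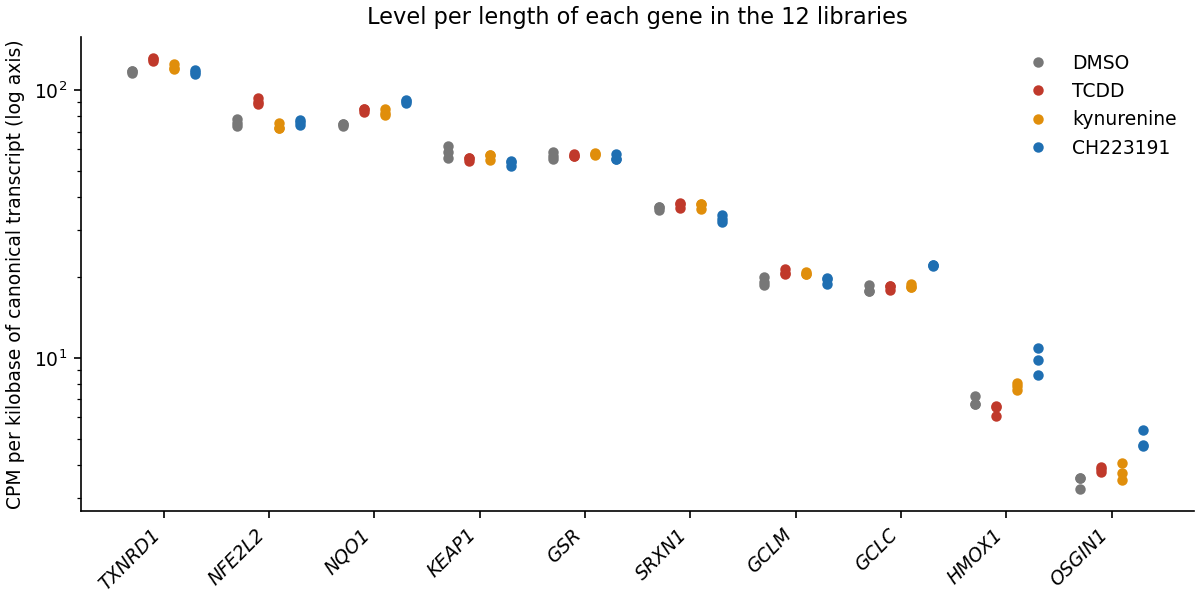
CPM per kilobase of canonical transcript (log axis) for each of the 10 genes in the 12 libraries, coloured by group, with genes ordered by their DMSO level. TXNRD1 lies highest and OSGIN1 lowest in every group, and the colours separate most clearly at NFE2L2, NQO1, GCLC, HMOX1 and OSGIN1.

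The genes called differed between the compounds, with NQO1 called for each of them. TCDD raised 4 (NFE2L2, NQO1, TXNRD1 and GCLM) and lowered 0, kynurenine raised 1 (NQO1), and CH223191 raised 4 (NQO1, GCLC, HMOX1 and OSGIN1) and lowered 2 (KEAP1 and SRXN1). Some of these calls were lost in part of 19 alternative analyses. GCLM with TCDD was lost in 13, NQO1 with kynurenine in 6 and KEAP1 with CH223191 in 1. A change was called at a Benjamini-Hochberg adjusted p under 0.05 in edgeR's quasi-likelihood test over all tested genes. The share of all tested genes called in either direction was 11.7% for TCDD, 0.294% for kynurenine and 32.8% for CH223191, so the 4, 1 and 6 of 10 genes called are read against those shares. Among the values below DMSO with TCDD, 1 of the 10 (KEAP1) had an unadjusted p under 0.05 in edgeR and 0 were called in DESeq2, and with kynurenine these counts were 0 and 0. All the called changes were within 1.43-fold. The summed epithelial markers lay below the DMSO range with TCDD, within it with CH223191 and partly above it with kynurenine. Of the 8, 1 rose and 2 fell with TCDD and 1 fell with CH223191, and their part in these calls was not tested. The 3 comparisons share the same DMSO libraries and are not independent of each other. In bulk RNA, a change in the number of cells that express a gene and a change in RNA per cell cannot be told apart.

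**Figure D2:**
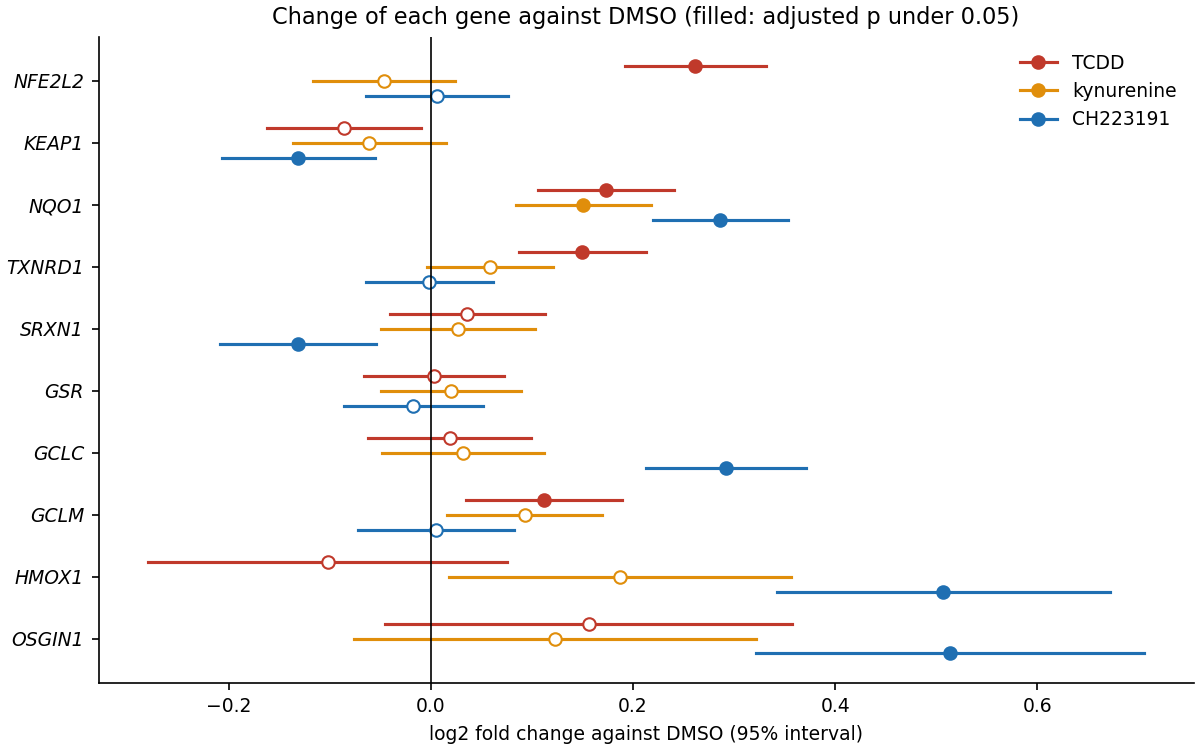
Log2 fold change against DMSO of each gene (points) with unadjusted 95% intervals (bars) for TCDD, kynurenine and CH223191, 3 libraries per group, with filled points for adjusted p under 0.05. NFE2L2 and TXNRD1 are filled for TCDD alone, GCLC, HMOX1 and OSGIN1 for CH223191 alone, NQO1 for all 3 compounds and GSR for none.

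The regulators came first. NFE2L2 (chromosome 2, 177218667 to 177392756, on the minus strand) encodes NRF2 itself. It was at 184.8, 190.0 and 180.0 CPM in the 3 DMSO libraries and at 219.7, 216.8 and 228.6 CPM in the 3 TCDD libraries. It was at 184, 176 and 177 CPM with kynurenine and 182, 189 and 186 CPM with CH223191. The 3 TCDD libraries lay above all 9 others, and the other 3 groups overlapped one another. NFE2L2 rose 1.20-fold with TCDD (log2 fold change 0.26, standard error 0.0345, adjusted p = 1.1e-06). Kynurenine (-0.05, 95% interval -0.12 to 0.02, adjusted p = 0.89) and CH223191 (0.01, 95% interval -0.06 to 0.08, adjusted p = 0.92) gave no call. The difference between compounds was itself past the threshold: NFE2L2 was higher with TCDD than with kynurenine (log2 difference 0.31, adjusted p = 4.2e-08, and 0.33, adjusted p = 1.0e-09 without kynurenine replicate 1) and than with CH223191 (0.26, adjusted p = 2.7e-07). Its gene span crosses those of HNRNPA3 and AGPS on the opposite strand, but its canonical transcript shares 0 bases with their annotated exons. Exons of its other transcripts were not compared. Whether counting used the strand of the reads is not given in the sources used here.

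KEAP1 (chromosome 19, 10486125 to 10503558, on the minus strand) encodes the adaptor that presents NRF2 for degradation. Its DMSO libraries were at 158.4, 142.8 and 150.1 CPM and its CH223191 libraries at 139.7, 138.5 and 133.6 CPM. With TCDD it was at 143, 143 and 139 CPM and with kynurenine at 146.2, 140.3 and 146.1 CPM. All 3 CH223191 libraries lay below all 3 DMSO libraries, whereas the TCDD and kynurenine libraries overlapped DMSO. KEAP1 fell with CH223191 (log2 fold change -0.13, standard error 0.0373, adjusted p = 0.00633), a call that was lost without DMSO replicate 1, the library in which it was highest (-0.09, adjusted p = 0.0728). With TCDD it had a log2 fold change of -0.09, 95% interval -0.16 to -0.01, adjusted p = 0.14, which became a call without DMSO replicate 2 (-0.12, adjusted p = 0.0358).

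NQO1 (chromosome 16, 69706996 to 69726668, on the minus strand) encodes a flavoenzyme that reduces quinones by a pair of electrons and is shared between NRF2 and AHR as a target. It was at 189, 185 and 189 CPM in DMSO and at 214, 213 and 208 CPM with TCDD. It was at 214, 203 and 208 CPM with kynurenine and at 224.6, 232.0 and 230.3 CPM with CH223191. Every treated library lay above every DMSO library, the TCDD and kynurenine libraries overlapped, and the CH223191 libraries lay above all others. NQO1 rose 1.13-fold with TCDD (log2 fold change 0.17, standard error 0.033, adjusted p = 4.1e-04) and 1.22-fold with CH223191 (log2 fold change 0.29, standard error 0.0328, adjusted p = 1.3e-08). It also rose 1.11-fold with kynurenine (log2 fold change 0.15, standard error 0.0329, adjusted p = 0.0227), where it was 1 of 40 genes called over the whole table. The kynurenine call did not hold without replicate 1 of kynurenine (0.13, adjusted p = 0.0955), without replicate 3 of kynurenine, without any 1 of the DMSO libraries, or in a fit of those 6 libraries alone (adjusted p = 0.104). TCDD and kynurenine differed little for NQO1 (log2 difference 0.02, 95% interval -0.04 to 0.09, adjusted p = 0.74, and 0.04, adjusted p = 0.62 without kynurenine replicate 1). NQO1 was lower with TCDD than with CH223191 (-0.11, adjusted p = 0.00634) and lower with kynurenine than with CH223191 (-0.14, adjusted p = 0.00137, and -0.16, adjusted p = 4.4e-04 without kynurenine replicate 1), so the compound used as an AHR antagonist had the highest NQO1 of the 4 groups.

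**Figure D3:**
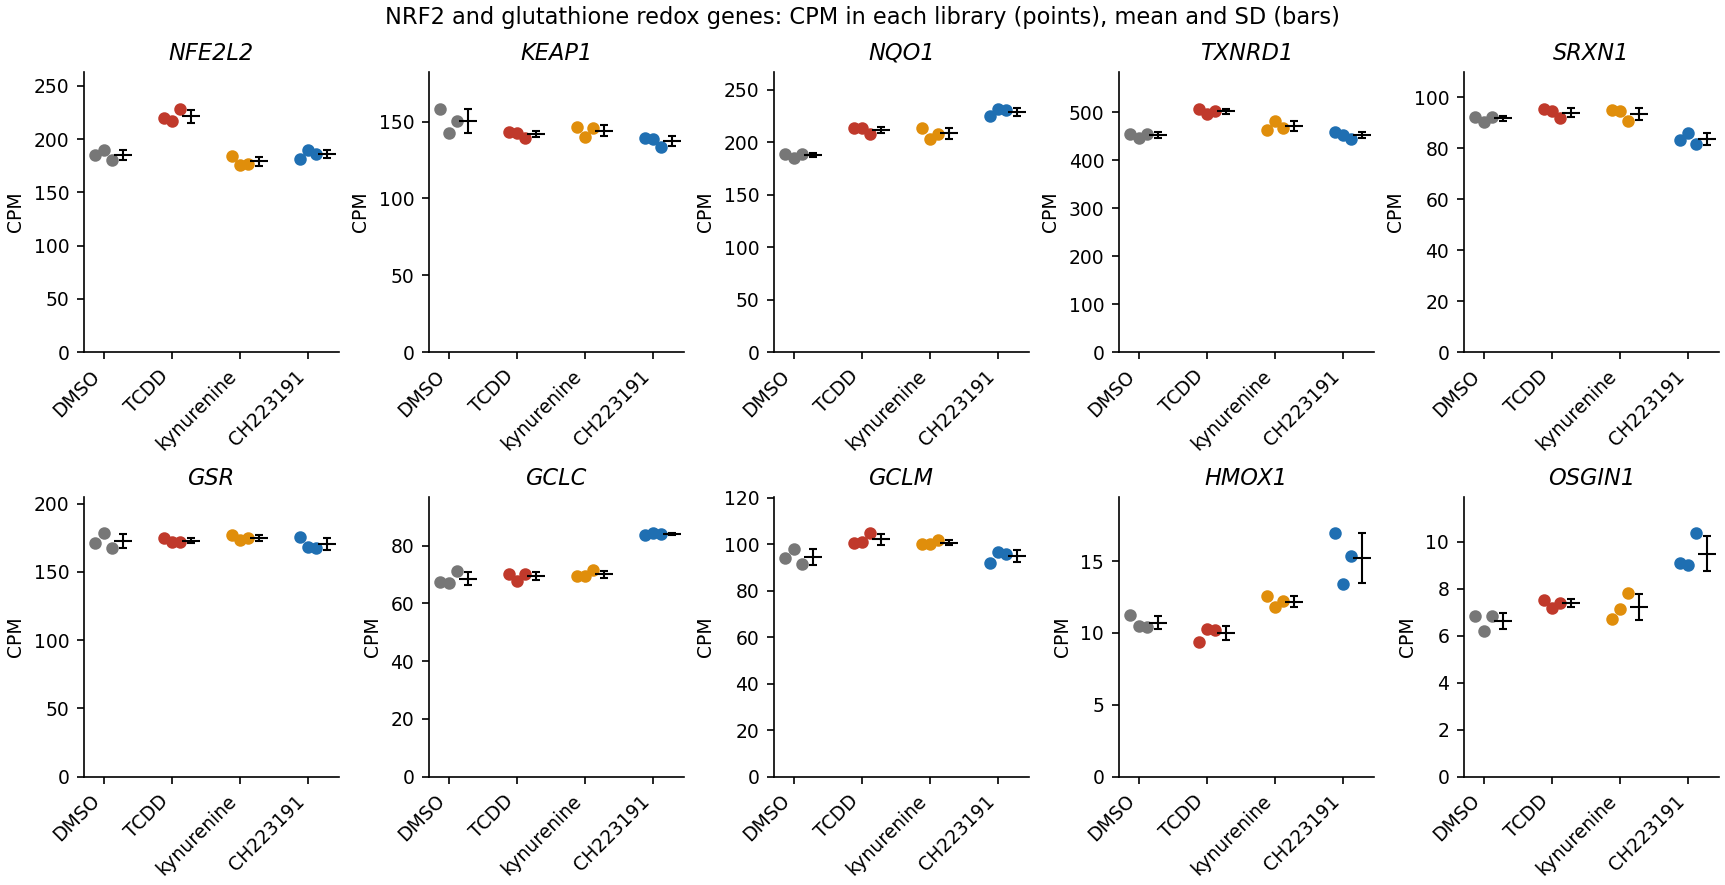
CPM of each of the 10 genes in each library (points, 3 per group) with the group mean and SD (black bars), each panel starting at 0. NFE2L2 is raised in the TCDD group alone, NQO1 in all 3 treated groups, and GCLC, HMOX1 and OSGIN1 in the CH223191 group.

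In the thioredoxin branch, TXNRD1 was called with TCDD and SRXN1 with CH223191. TXNRD1 (chromosome 12, 104215779 to 104350307, on the plus strand) uses NADPH to reduce thioredoxin. It was at 455, 446 and 455 CPM in DMSO, 507, 496 and 502 CPM with TCDD, 464, 482 and 467 CPM with kynurenine and 458, 452 and 445 CPM with CH223191. The TCDD libraries lay above all 9 others, the kynurenine libraries lay above the DMSO ones, and the CH223191 libraries overlapped DMSO. TXNRD1 rose with TCDD (log2 fold change 0.15, standard error 0.0309, adjusted p = 0.00101) and was not called with kynurenine (0.06, 95% interval -0.004 to 0.12, adjusted p = 0.78) or CH223191 (-0.0015, 95% interval -0.06 to 0.06, adjusted p = 0.98). It was higher with TCDD than with CH223191 (0.15, adjusted p = 1.9e-04). The difference between TCDD and kynurenine was not called (0.09, 95% interval 0.03 to 0.15, adjusted p = 0.0565, and 0.08, adjusted p = 0.18 without kynurenine replicate 1), but was called in 4 alternative analyses, DESeq2 (adjusted p = 0.0134) and the fit without kynurenine replicate 2 (0.11, adjusted p = 0.0469) among them.

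SRXN1 (chromosome 20, 646615 to 653200, on the minus strand) encodes sulfiredoxin, which restores overoxidised peroxiredoxins. It was at 92.4, 90.4 and 92.3 CPM in DMSO, 95.5, 94.5 and 91.9 CPM with TCDD, 94.9, 94.6 and 90.6 CPM with kynurenine and 83.2, 86.1 and 81.5 CPM with CH223191. The CH223191 libraries lay below all 9 others, and the other 3 groups overlapped. SRXN1 fell with CH223191 (log2 fold change -0.13, standard error 0.038, adjusted p = 0.00718), and it was higher with TCDD (0.17, adjusted p = 7.0e-04) and with kynurenine (0.16, adjusted p = 0.00133, and 0.15, adjusted p = 0.00596 without kynurenine replicate 1) than with CH223191. Against DMSO, TCDD (0.04, 95% interval -0.04 to 0.11, adjusted p = 0.61) and kynurenine (0.03, 95% interval -0.05 to 0.10, adjusted p = 0.95) gave no call.

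In the glutathione branch the 2 subunits of glutamate-cysteine ligase, which catalyses the limiting step of glutathione synthesis, were called with different compounds. GCLC (chromosome 6, 53497341 to 53616970, on the minus strand) is the catalytic subunit. It was at 67.3, 67.3 and 71.1 CPM in DMSO, 70.1, 68.0 and 70.3 CPM with TCDD and 69.5, 69.4 and 71.5 CPM with kynurenine. With CH223191 it was at 83.7, 84.2 and 84.0 CPM, above all 9 other libraries. GCLC rose 1.22-fold with CH223191 (log2 fold change 0.29, standard error 0.0389, adjusted p = 2.9e-07). It was lower with TCDD (-0.27, adjusted p = 8.6e-07) and with kynurenine (-0.26, adjusted p = 2.3e-06, and -0.26, adjusted p = 5.9e-06 without kynurenine replicate 1) than with CH223191, and neither TCDD (0.02, 95% interval -0.06 to 0.10, adjusted p = 0.83) nor kynurenine (0.03, 95% interval -0.05 to 0.11, adjusted p = 0.94) gave a call against DMSO.

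GCLM (chromosome 1, 93885199 to 93909456, on the minus strand) is the modifier subunit, which lowers the ligase's need for glutamate and its inhibition by glutathione. It was at 94.1, 98.0 and 91.3 CPM in DMSO, 101, 101 and 105 CPM with TCDD, 100.2, 100.2 and 101.8 CPM with kynurenine and 91.8, 96.8 and 95.8 CPM with CH223191. The TCDD and kynurenine libraries lay above all DMSO libraries, and the CH223191 libraries overlapped DMSO. GCLM rose with TCDD (log2 fold change 0.11, standard error 0.038, adjusted p = 0.0491), barely past the threshold, and the call was lost in 13 of 19 alternative analyses (adjusted p up to 0.252). Among these were the fits without DMSO replicate 1 (0.11, adjusted p = 0.132), without DMSO replicate 3 (0.09, adjusted p = 0.223) and without TCDD replicate 3 (0.09, adjusted p = 0.252), and the fit with replicate number as a block (0.11, adjusted p = 0.0579). Kynurenine (0.09, 95% interval 0.02 to 0.17, adjusted p = 0.59) and CH223191 (0.0048, 95% interval -0.07 to 0.08, adjusted p = 0.94) gave no call. GCLM was higher with TCDD than with CH223191 (0.11, adjusted p = 0.026), a call lost without TCDD replicate 3 (0.08, adjusted p = 0.142), without CH223191 replicate 1 (0.08, adjusted p = 0.137), with library totals alone as scaling and with no filter on low counts.

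GSR (chromosome 8, 30678066 to 30727846, on the minus strand) encodes glutathione reductase, which returns oxidised glutathione to its reduced form. It was at 171, 178 and 168 CPM in DMSO, 175, 172 and 172 CPM with TCDD, 177, 173 and 175 CPM with kynurenine and 175, 168 and 168 CPM with CH223191. All 4 groups overlapped. GSR was the 1 gene of the 10 with no call in a joint test over the 4 groups (adjusted p = 0.80), a test that called 9 of the 10 and 43.6% of all tested genes. No compound gave a call against DMSO: TCDD (0.0029, 95% interval -0.07 to 0.07, adjusted p = 0.97), kynurenine (0.02, 95% interval -0.05 to 0.09, adjusted p = 0.96) or CH223191 (-0.02, 95% interval -0.09 to 0.05, adjusted p = 0.74).

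The 2 genes with the lowest levels per length, HMOX1 and OSGIN1, had the largest fold changes of the 10, both with CH223191. HMOX1 (chromosome 22, 35380361 to 35394214, on the plus strand) encodes heme oxygenase 1, which breaks down heme. It was at 11.2, 10.5 and 10.4 CPM in DMSO, 9.40, 10.3 and 10.2 CPM with TCDD, 12.5, 11.8 and 12.2 CPM with kynurenine and 16.9, 13.4 and 15.3 CPM with CH223191, from 231 to 470 reads a library. Its order was TCDD, DMSO, kynurenine and CH223191, with no overlap between neighbouring groups in that order. HMOX1 rose 1.42-fold with CH223191 (log2 fold change 0.51, standard error 0.0811, adjusted p = 7.1e-06). Against DMSO, TCDD (-0.10, 95% interval -0.28 to 0.08, adjusted p = 0.51) and kynurenine (0.19, 95% interval 0.02 to 0.36, adjusted p = 0.67) gave no call. HMOX1 was lower with TCDD than with kynurenine (-0.29, adjusted p = 0.0275), and this call was lost without replicate 1 of kynurenine (-0.27, adjusted p = 0.106), without replicate 3 of kynurenine (-0.29, adjusted p = 0.0586), without TCDD replicate 1 (-0.25, adjusted p = 0.126), without TCDD replicate 3 (-0.31, adjusted p = 0.0653) and in DESeq2. It was also lower with TCDD (-0.61, adjusted p = 3.8e-07) and with kynurenine (-0.32, adjusted p = 0.00197, and -0.34, adjusted p = 0.00298 without kynurenine replicate 1) than with CH223191.

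OSGIN1 (chromosome 16, 83931311 to 83966332, on the plus strand) encodes a growth inhibitor induced by oxidative stress. It was at 6.83, 6.22 and 6.83 CPM in DMSO, 7.53, 7.20 and 7.40 CPM with TCDD, 6.73, 7.14 and 7.80 CPM with kynurenine and 9.11, 9.03 and 10.4 CPM with CH223191, from 165 to 253 reads a library. The CH223191 libraries lay above all 9 others. The TCDD libraries lay above the DMSO ones, and the kynurenine libraries overlapped both groups. OSGIN1 rose 1.43-fold with CH223191 (log2 fold change 0.51, standard error 0.0946, adjusted p = 5.7e-05), and it was lower with TCDD (-0.36, adjusted p = 0.00306) and with kynurenine (-0.39, adjusted p = 0.0013, and -0.34, adjusted p = 0.0104 without kynurenine replicate 1) than with CH223191. TCDD (0.16, 95% interval -0.05 to 0.36, adjusted p = 0.34) and kynurenine (0.12, 95% interval -0.08 to 0.32, adjusted p = 0.9) gave no call against DMSO. Its span overlaps that of MLYCD on the same strand, with 0 bases shared between its canonical transcript and the annotated exons of MLYCD. Exons of its other transcripts were not compared.

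Set directly against each other, the compounds gave 8, 5 and 2 calls among the 10 genes. Between TCDD and CH223191, 4 of the 10 genes were higher with TCDD (NFE2L2, TXNRD1, SRXN1 and GCLM) and 4 lower (HMOX1, OSGIN1, GCLC and NQO1), where 19% of all tested genes were higher and 18.1% lower, 37.1% in all. Between kynurenine and CH223191, 1 was higher with kynurenine (SRXN1) and 4 lower (OSGIN1, HMOX1, GCLC and NQO1), where 16.6% of all genes were higher and 16.4% lower, 33% in all, and the counts were 1 and 4 without kynurenine replicate 1 as well. Between TCDD and kynurenine, 1 was higher with TCDD (NFE2L2) and 1 lower (HMOX1), where 5.1% of all genes were higher and 4.09% lower, 9.19% in all. Without kynurenine replicate 1 these counts were 1 and 0. In all, 6 pairs of groups were compared, and p-values were adjusted over all genes within each pair. The median log2 fold change of the 10 genes was 0.07 with TCDD, 0.05 with kynurenine and 0.01 with CH223191, beside a median near 0.00 over all tested genes in each comparison.

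Overlap between the libraries of 2 groups was counted as well. Groups did not overlap for 6 of the 10 genes between TCDD and DMSO, where 27.8% of all genes did not overlap. OSGIN1 and HMOX1 were the ones among these 6 without a call. The count was 4 of 10 between kynurenine and DMSO (NQO1, TXNRD1, GCLM and HMOX1), against 11.4% of all genes, and 6 of 10 between CH223191 and DMSO, against 43.4%.

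A wider list of 80 further genes of NRF2 control, glutathione, thioredoxin, NADPH, detoxification, heme and peroxide removal was read in the same fit, and 77 of them were tested. With TCDD 5 rose and 8 fell, with kynurenine 0 changed in either direction, and with CH223191 20 rose and 10 fell. In DESeq2, 4 rose and 8 fell with TCDD, and 16 rose and 10 fell with CH223191. For kynurenine, 4 genes higher and 2 lower had an unadjusted p under 0.05 in edgeR, and 0 were called in DESeq2 or in edgeR without replicate 1 of kynurenine. Over all tested genes the shares were 5.91% higher and 5.83% lower with TCDD, 0.154% and 0.14% with kynurenine, and 15.9% and 16.9% with CH223191. The counts against DMSO given below for smaller groups of genes are read against the same shares, and no group was tested as a set. None of the 10 genes above is counted in this list.

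SLC7A11, the exchanger that brings in cystine as a source of cysteine for glutathione, had the largest change of the glutathione group with CH223191 and with TCDD. It was at 32.2, 35.3 and 33.5 CPM in DMSO and 101, 95.1 and 94.8 CPM with CH223191, and rose 2.88-fold (log2 fold change 1.52, standard error 0.0523, adjusted p = 6.2e-23). With TCDD it was at 42.3, 42.2 and 45.5 CPM and rose 1.29-fold (log2 fold change 0.37, standard error 0.0567, adjusted p = 2.0e-05), while with kynurenine it was at 29.7, 36.4 and 31.9 CPM (-0.04, 95% interval -0.16 to 0.07, adjusted p = 0.95). Of the 19 tested genes of glutathione supply and use, 4 rose and 1 fell with CH223191 (2 and 1 in DESeq2), and 1 rose and 2 fell with TCDD. GSS, glutathione synthetase, rose with CH223191 (0.15, adjusted p = 0.00654), and GGCT, which degrades gamma-glutamyl dipeptides, fell (-0.16, adjusted p = 0.00244). The peroxidases GPX4 (-0.15, adjusted p = 0.00536) and GPX1 (-0.14, adjusted p = 0.0299) fell with TCDD. Both peroxidase calls were lost without DMSO replicate 1 (GPX4 -0.11, adjusted p = 0.0754, and GPX1 -0.09, adjusted p = 0.275), and that of GPX1 also without DMSO replicate 3, TCDD replicate 1 or TCDD replicate 3.

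Of 13 genes of the thioredoxin and peroxiredoxin system, 4 rose and 1 fell with CH223191, and 1 rose and 1 fell with TCDD. In DESeq2 these counts were 3 and 1 with CH223191 and 0 and 1 with TCDD. SESN2, a sestrin that restrains mTORC1 and aids peroxiredoxin repair, was at 23.6, 23.5 and 19.8 CPM in DMSO and 67.5, 69.4 and 61.7 CPM with CH223191, a 2.97-fold rise (log2 fold change 1.57, standard error 0.0553, adjusted p = 1.0e-22). It was at 21.2, 20.7 and 21.3 CPM with TCDD and 22.3, 21.8 and 22.2 CPM with kynurenine, so its CH223191 libraries lay far above the other 9. SESN3 (0.44, adjusted p = 3.9e-09) and the peroxiredoxin PRDX5 (0.18, adjusted p = 4.7e-04) also rose with CH223191. With TCDD, TXNIP, the inhibitor of thioredoxin, rose (0.12, adjusted p = 0.048) and PRDX5 fell (-0.13, adjusted p = 0.0361). Both calls were lost without DMSO replicate 1 (TXNIP 0.10, adjusted p = 0.202, and PRDX5 -0.09, adjusted p = 0.243), without DMSO replicate 3, TCDD replicate 1 or TCDD replicate 3, with that of PRDX5 also lost without CH223191 replicate 2 and that of TXNIP in 9 other analyses, DESeq2 among them. TXN, thioredoxin itself, was not called with TCDD (-0.03, adjusted p = 0.7), kynurenine (0.04, adjusted p = 0.93) or CH223191 (-0.01, adjusted p = 0.85).

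**Figure D4:**
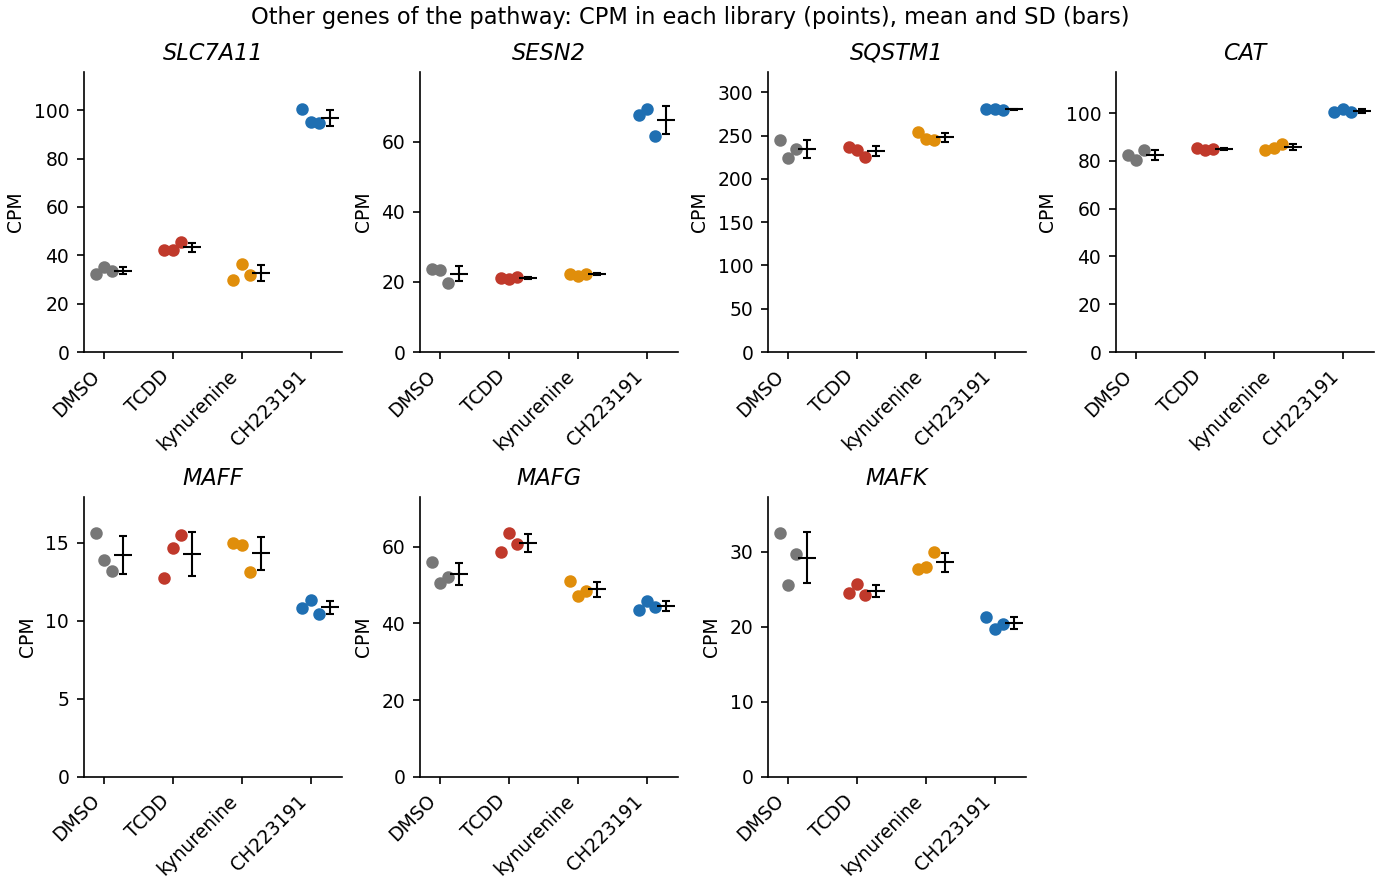
CPM in each library (points, 3 per group) with the group mean and SD (black bars) for 7 further genes of the pathway, each panel starting at 0. SLC7A11 and SESN2 show the widest gap between CH223191 and the other groups, and the small MAF genes lie lowest with CH223191.

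Among 12 regulators and partners of NRF2, 2 rose and 5 fell with CH223191, and 1 rose and 2 fell with TCDD. The small MAF genes encode the partners NRF2 needs to bind DNA. MAFK fell with CH223191, from 32.5, 25.6 and 29.7 CPM to 21.3, 19.7 and 20.4 CPM (log2 fold change -0.51, standard error 0.065, adjusted p = 1.2e-07). MAFF (-0.39, adjusted p = 4.5e-04) and MAFG (-0.25, adjusted p = 1.2e-04), named after their values were seen to complete the trio, fell too. With TCDD, MAFG rose (0.21, adjusted p = 0.00259) and MAFK fell (-0.24, adjusted p = 0.0115), the latter call being lost without DMSO replicate 1 (-0.16, adjusted p = 0.171), DMSO replicate 3 or TCDD replicate 3. SQSTM1, the autophagy receptor p62 that can sequester KEAP1, was at 245, 224 and 235 CPM in DMSO and 281.1, 281.1 and 280.0 CPM with CH223191 and rose (log2 fold change 0.26, standard error 0.0344, adjusted p = 2.7e-07). PGAM5, a mitochondrial phosphatase that binds KEAP1, fell with CH223191 (-0.25, adjusted p = 1.2e-06). DPP3, a peptidase that also binds KEAP1, fell with TCDD (-0.12, adjusted p = 0.0179), a call lost without DMSO replicate 1 (-0.12, adjusted p = 0.0575), DMSO replicate 3 or TCDD replicate 3. BACH1, the repressor that competes for the same elements, was not called with TCDD (0.02, adjusted p = 0.85), kynurenine (0.04, adjusted p = 0.93) or CH223191 (0.04, adjusted p = 0.55).

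NADPH feeds GSR, TXNRD1 and NQO1. Of 7 genes of NADPH supply, 3 rose and 0 fell with CH223191, and 0 rose and 1 fell with TCDD. None of the 7 was lower with CH223191 or higher with TCDD at an unadjusted p under 0.05 in edgeR, and 0 were called so in DESeq2. PGLS, a lactonase of the pentose phosphate pathway, fell with TCDD (-0.20, adjusted p = 0.00382) and rose with CH223191 (0.21, adjusted p = 6.0e-04). The cytosolic NADP enzymes IDH1 (0.16, adjusted p = 3.5e-04) and ME1 (0.12, adjusted p = 0.00677) rose with CH223191 too. Between TCDD and CH223191 5 of the 7 were lower with TCDD, where 18.1% of all tested genes were lower and 19% higher. Of the 7, 0 were higher by edgeR at an adjusted or an unadjusted p under 0.05 or by DESeq2.

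Of 12 tested detoxification targets, 3 rose and 1 fell with CH223191, led by AKR1C3, an aldo-keto reductase (0.44, adjusted p = 1.2e-05), whose near-identical paralogs may share its reads. With TCDD ALDH3A2, a fatty aldehyde dehydrogenase, rose (0.21, adjusted p = 2.4e-05) and EPHX1, an epoxide hydrolase, fell (-0.12, adjusted p = 0.0173), the latter call being lost without DMSO replicate 1 (-0.11, adjusted p = 0.0689) or TCDD replicate 3. EPHX1 rose with CH223191 (0.11, adjusted p = 0.00642), and ABCC1, an exporter of glutathione conjugates, fell (-0.13, adjusted p = 0.00987). Of 9 genes of heme and iron handling, 3 rose and 2 fell with CH223191 (2 and 2 in DESeq2). Among them were FTL, the ferritin light chain (0.22, adjusted p = 1.2e-05), FECH, the last enzyme of heme synthesis (0.22, adjusted p = 6.3e-05), and FLVCR1, a heme exporter (-0.25, adjusted p = 1.0e-04). FTH1, the ferritin heavy chain, rose with TCDD (0.16, adjusted p = 8.7e-04), and BLVRA, a biliverdin reductase, fell (-0.19, adjusted p = 0.0182), a call lost without DMSO replicate 1 (-0.17, adjusted p = 0.104), DMSO replicate 3, TCDD replicate 1 or TCDD replicate 3. Of 5 genes of superoxide and peroxide removal, CAT, catalase, rose with CH223191 from 82.4, 80.4 and 84.6 CPM to 100.4, 101.9 and 100.3 CPM (0.29, adjusted p = 1.0e-07), and 0 changed with TCDD by edgeR or DESeq2, where 1 had an unadjusted p under 0.05.

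**Figure D5:**
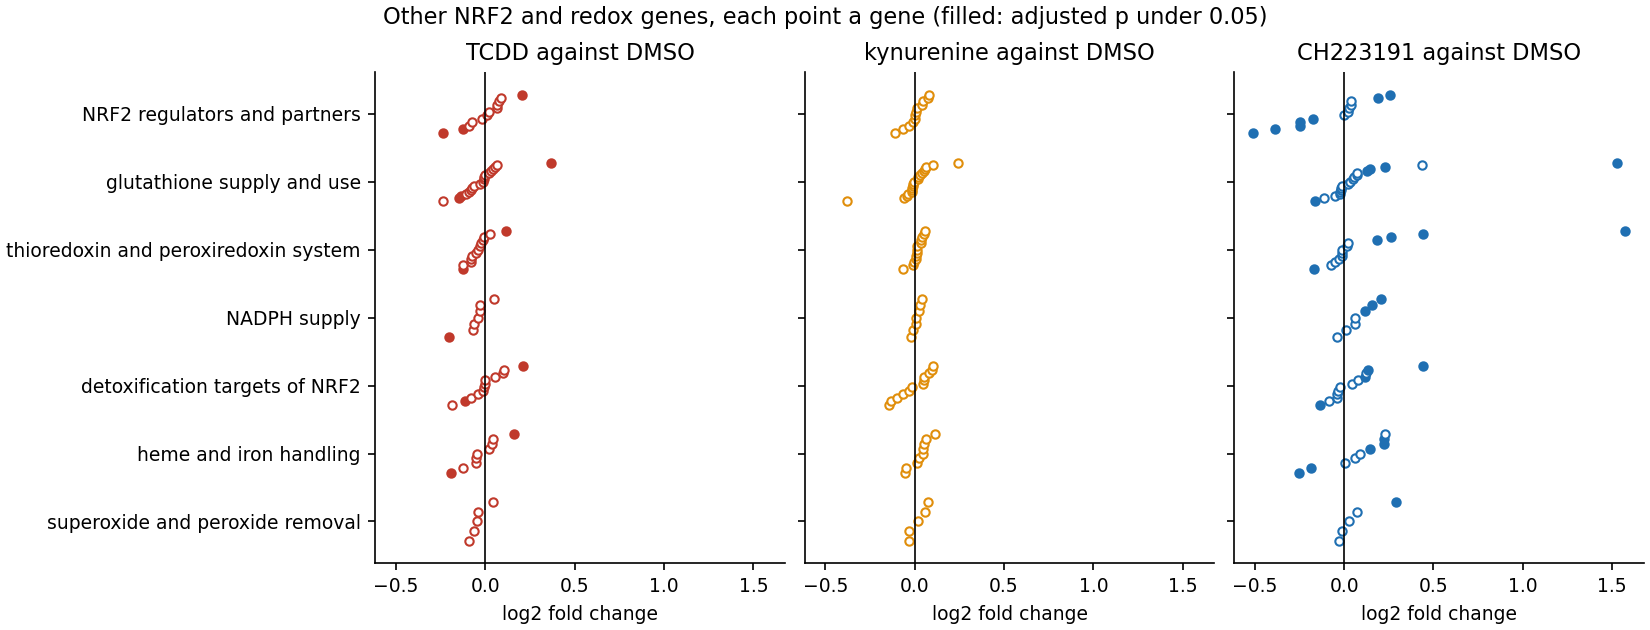
Log2 fold change against DMSO (horizontal axis) of the other NRF2 and redox genes, with 1 row per gene group and 1 panel per compound, each point a gene and filled where the adjusted p is under 0.05. The CH223191 panel has 2 far points, SLC7A11 at 1.52 and SESN2 at 1.57, and the kynurenine panel has no filled point in these groups.

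Genes of the ATF4 branch of the stress response moved with CH223191 as well, and some of them share target genes with NRF2. All 8 of the ATF4-branch genes read here rose with CH223191, where 15.9% of all tested genes rose. These 8 were chosen with earlier results of these data known. Their median log2 fold change was 1.08, and among them were DDIT4, an mTORC1 inhibitor (2.39), ASNS, asparagine synthetase (1.41), and PSAT1, a serine synthesis enzyme (1.13). With TCDD 1 of the 8 rose and 1 fell, and with kynurenine 0 changed by edgeR (1 at an unadjusted p under 0.05) or DESeq2. The part of the ATF4 branch in the changes of SLC7A11, SESN2 and the redox genes with CH223191 was not tested. Of this branch, DDIT4 rose with TCDD (0.58, adjusted p = 4.7e-12) and TRIB3, a pseudokinase that restrains ATF4, fell (-0.15, adjusted p = 0.00621), the latter call being lost without TCDD replicate 2 (-0.12, adjusted p = 0.0551).

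For NQO1, and for the 2 genes with the largest changes, the tested genes whose 3 log2 fold changes against DMSO lay nearest were found among 12102 candidates, by root mean square difference over the 3 comparisons. Nearest to NQO1 were PEX11A (0.0132), VMAC (0.0164) and SP100 (0.0169). Nearest to HMOX1 were ACOT11 (0.0281), RGS16 (0.0380) and KLF11 (0.0385), and nearest to OSGIN1 were IQCD (0.0226), SPATA6 (0.0272) and GDPGP1 (0.0273). With 12102 candidates and 3 values each, near neighbours are found for most patterns, and the 3 values share their DMSO libraries. Some neighbours had low mean levels: VMAC 1.06, IQCD 1.35, GDPGP1 2.81 and SPATA6 3.92 CPM. OSGIN1, at 6.22 to 10.4 CPM, had a standard error of 0.0946 with CH223191, larger than every difference given here. The order of such neighbours is therefore not resolved.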

How the data were processed

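Per the submitters' processing notes, reads were trimmed with Trim Galore, aligned to hg38 with STAR 2.7.2b, sorted with SAMtools 1.9 and counted per gene with HTSeq. The protocol text names another STAR version and does not mention CH223191. The authors deposited whole-number read counts for each gene symbol, not normalised, and the strand setting is not given in the sources used here. Reads in no feature (6.59% to 8.48%) and reads aligned to several places (2.63% to 3.91%) name no gene and stayed out of totals and tests.

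Tests were run on these counts in edgeR 4.0.16 under R 4.3.3. Genes with few reads were removed by filterByExpr (minimum count 10), libraries were scaled by TMM factors (0.988 to 1.02), and 1 quasi-likelihood model with a coefficient per group was fitted to all 12 libraries. P-values were adjusted by Benjamini-Hochberg over 13619 genes within each comparison, and an adjusted p under 0.05 was a call. Standard errors come from the log2 fold change and the F statistic. CPM use the scaled totals. Alternatives were DESeq2 1.42.0, leaving out each library in turn, fitting the 6 libraries of a comparison by themselves, a block for replicate number, scaling by RLE or by library totals alone, testing genes without any low-count filter, and a stricter filter of 5 CPM in 3 or more libraries. Lengths and positions are from GENCODE 44 on hg38, and promoter sequences from RefSeq (GRCh38.p14).

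To look for a library deposited more than once, the variance between 2 libraries' counts was set against Poisson noise. It was 1.74 to 4.55 times that noise within groups (12 pairs), and 0 libraries were left out. Same-numbered libraries of different groups did not deviate together (r -0.055 to 0.037 in 18 pairs, against -0.053 to 0.083 in 36 other pairs), and the samples were not treated as pairs.

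The members and the lists were chosen with earlier results of these data known. Named genes were all 10 members, up to 3 called genes of smallest p per other list and comparison, and SLC7A11, TXN, BACH1, SQSTM1 and CYP1A1 always. One listed gene is not reported here and is left out of the list counts. Nearest patterns were sought for NQO1 and for members past the joint test with an absolute log2 fold change of at least 0.3 against DMSO, over genes averaging 1 CPM or more.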

Additional observations from a re-analysis of the deposited data

How the results depend on the processing

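Of the 60 log2 fold changes of the 10 genes over 6 comparisons, 26 were called, and 21 of these kept their call and direction in all 19 alternative analyses. The exceptions were GCLM between TCDD and DMSO and between TCDD and CH223191, NQO1 with kynurenine, HMOX1 between TCDD and kynurenine, and KEAP1 with CH223191, all given above. The number of the 10 genes called was 3 to 5 with TCDD, 0 to 1 with kynurenine and 5 to 6 with CH223191 when each library was left out. It was 1 to 3 between TCDD and kynurenine, 7 to 8 between TCDD and CH223191 and 5 between kynurenine and CH223191. Fitted on the 6 kynurenine and DMSO libraries alone, kynurenine gave 0 calls among the 10 genes and 26 among all genes, against 40, and no low-count filter gave 65. Over all genes, TCDD against DMSO gave 805 to 1912 calls when a library was left out, against 1599, with 851 without DMSO replicate 1, 1020 without DMSO replicate 3 and 805 without TCDD replicate 3. TCDD against kynurenine gave 576 to 1323, against 1252, with 576 without TCDD replicate 3 and 658 without kynurenine replicate 1. The cause of these differences was not tested.

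Values near 0 that were not called changed sign in some analyses. With CH223191 against DMSO, TXNRD1 had 0.023 with library totals alone, 0.012 with at least 5 CPM in 3 libraries, 0.00027 in the 6 libraries alone and -0.012 to 0.0096 with libraries left out. In that comparison GSR had 0.0075 and TXN 0.013 with library totals alone, and TXN had 0.0016 with at least 5 CPM in 3 libraries. With libraries left out, the ranges for CH223191 were -0.013 to 0.025 for NFE2L2, -0.019 to 0.032 for GCLM, -0.039 to 0.0067 for GSR and -0.058 to 0.023 for TXN. With TCDD against DMSO, GSR had -0.0024 with no low-count filter and -0.016 to 0.027 with libraries left out, BACH1 had -0.0060 to 0.050 and SQSTM1 -0.048 to 0.015. With kynurenine against DMSO, the ranges were -0.13 to 0.026 for SLC7A11 and -0.0072 to 0.063 for TXN. Between TCDD and kynurenine, they were -0.0023 to 0.027 for GCLM, -0.014 to 0.022 for SRXN1 and -0.017 to 0.087 for OSGIN1.

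The same replicate numbers recur in all 4 groups. With replicate number as a block, TCDD against DMSO gave 1537 calls over all genes and 3 among the 10 genes, kynurenine 38 and 1, and CH223191 4366 and 6. The block ended the calls of GCLM and of TXNIP (0.12, adjusted p = 0.0582) with TCDD and no other call among the named genes. Of 48 called values of named genes outside the 10, 39 kept their call and direction in all 19 analyses. HMOX1 and OSGIN1 rest on the fewest reads and have the widest intervals of the 10 genes.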
